A study of Ovis aries with 30 samples.

Results

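Translation initiation factors were taken as the rows of the count table whose gene name starts with EIF and a digit from 1 to 6, leaving out the EIF2AK kinases. This gave 48 of 28524 rows, on 21 chromosomes of the Rambouillet sheep genome (Oar_rambouillet_v1.0). RNA was sequenced from the brown adipose tissue (BAT) around the kidneys and from the thyroid of 15 newborn Romney lambs, 30 libraries in all. The cold group was 6 lambs kept at 4 °C for 2 days, the ambient temperature (AT) group was 6 lambs kept at 20 to 22 °C for 2 days, and the control group was 3 lambs sampled at the start, around 24 hours after lambing by the series' description and 12 to 24 hours or soon after by the study's methods. Treated lambs were therefore 2 days older than control lambs, so that treatment and age cannot be told apart in any comparison with control, and cold against AT compares lambs of the same age. Each sample is whole tissue, in which fewer cells of a type and less RNA per cell cannot be told apart.

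Initiation factors bring the small ribosomal subunit, the initiator tRNA and an mRNA together. The trimeric GTPase eIF2 carries the initiator tRNA, and eIF2B recharges it with GTP. The eIF4F complex, made of the cap binder eIF4E, the scaffold eIF4G and the RNA helicase eIF4A, recruits mRNA through its cap, and the large eIF3 complex holds the small subunit while EIF1, EIF1AX and EIF5 act in scanning and start codon choice. Supply of initiator tRNA by eIF2 and cap binding by eIF4E are the steps that stress kinases and mTOR are known to control, while thyroid follicular cells make thyroglobulin in bulk and brown adipocytes make heat through UCP1. The 48 members were sorted into 7 roles: 5 for eIF2 and initiator tRNA delivery, 5 for eIF2B, 5 for scanning and start codon choice, 13 for eIF3, 11 for eIF4F and its helpers, 4 inhibitors of the cap factor, and 5 with other or late roles.

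Normalized counts below are read counts divided by a size factor from 3 reference genes, ACTB, RPL19 and HUWE1. Depth was 31556500 to 37025998 counts per library in BAT and 25062784 to 30124871 in thyroid, of which the members took 0.136% to 0.444% in BAT and 0.488% to 0.777% in thyroid. The tissue labels held against the marker lists: the summed normalized count of 7 brown adipocyte genes was 28755 to 118383 in BAT and 1170 to 10917 in thyroid, and that of 7 thyroid follicular cell genes was 1322903 to 5866871 in thyroid and 132 to 1552 in BAT. The study left the control 2 lamb out of both tissues, and the values here rest on controls 1 and 3 unless said otherwise. In BAT the median member of control 2 lay 0.61 (log2) above the mean of the other controls, and its brown adipocyte marker sum was 365614, while in thyroid its median member lay 0.33 below them, with 32 of 47 members under the mean of the other controls. With TMM, a scaling over all genes, the median member of control 2 lay 0.95 above that mean in BAT. In thyroid it lay 0.01 above, with 23 of 47 members under the mean. In thyroid, AT 3 had a skeletal muscle marker sum of 3202093 and control 1 one of 276698, against at most 3690 in every other thyroid library, and AT 3 was the highest of the 6 AT libraries for 37 of 47 members. These thyroid libraries are left out again beside the results below, and the part of the muscle markers in those results was not tested.

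Of the 48 members, 47 had at least 10 reads in at least 10 libraries in each tissue and were tested. EIF4E1B, an eIF4E relative known from oocytes, was the exception, with a normalized count of 0 in every thyroid library and at most 1.91 in BAT. Per kilobase of exon, on 1 scale for both tissues, EIF1 had the highest level in BAT, with a mean over the 3 groups of 4669 normalized counts per kilobase, followed by the eIF3 subunit genes EIF3K at 4061 and EIF3E at 3870. In thyroid the helicase gene EIF4A2 was highest at 5303 per kilobase, followed by EIF1 at 4754 and EIF3M at 3377. These neighbours did not separate by their spread in cold BAT: EIF1 was 4441 ± 355 and EIF3K 4038 ± 378 (SD, n = 6). In AT BAT the order differed, with EIF1 at 4180, below EIF3K at 4726, EIF3E at 4611 and EIF3M at 4225. At the low end stood EIF5A2, a relative of EIF5A, at 38.3 per kilobase in BAT and 25.8 in thyroid.

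In thyroid, many initiation factor transcripts were lower after 2 days than at the start, in both the cold and the AT lambs, and none was called higher. A member was called when edgeR's quasi-likelihood test, adjusted by Benjamini-Hochberg over all tested genes, gave an adjusted p under 0.05. In cold against control, 20 of 47 members (42.6%) were lower, against 16.9% of all tested genes, and 0 were higher, against 2.34%. In AT against control, 21 members (44.7%) were lower, against 18.7% of all genes, and 0 were higher, against 2.23%. The median log2 fold change of the members was -0.65 in cold and -0.55 in AT, where the median of all genes was -0.28 in each. In cold 42 members had a log2 fold change below 0 (70.2% of all genes) and 36 were below both controls in every lamb (28.5%), and in AT these numbers were 42 (68.5%) and 17 (21.7%). No member was above both controls in every lamb, as 6.18% and 5.63% of all genes were. A change of at least 1 log2 unit was called for 4 members in cold (8.04% of all genes) and 2 in AT (7.8%). Scaled by TMM, which sets the median of all genes to 0.02 and 0.05, the members' medians were -0.35 and -0.21, and 8 and 7 members were lower, against 4.97% and 4.7% of all genes. Relative to the median of all genes the members lay at -0.37 and -0.27 with the reference genes and at -0.37 and -0.26 with TMM.

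**Figure D1:**
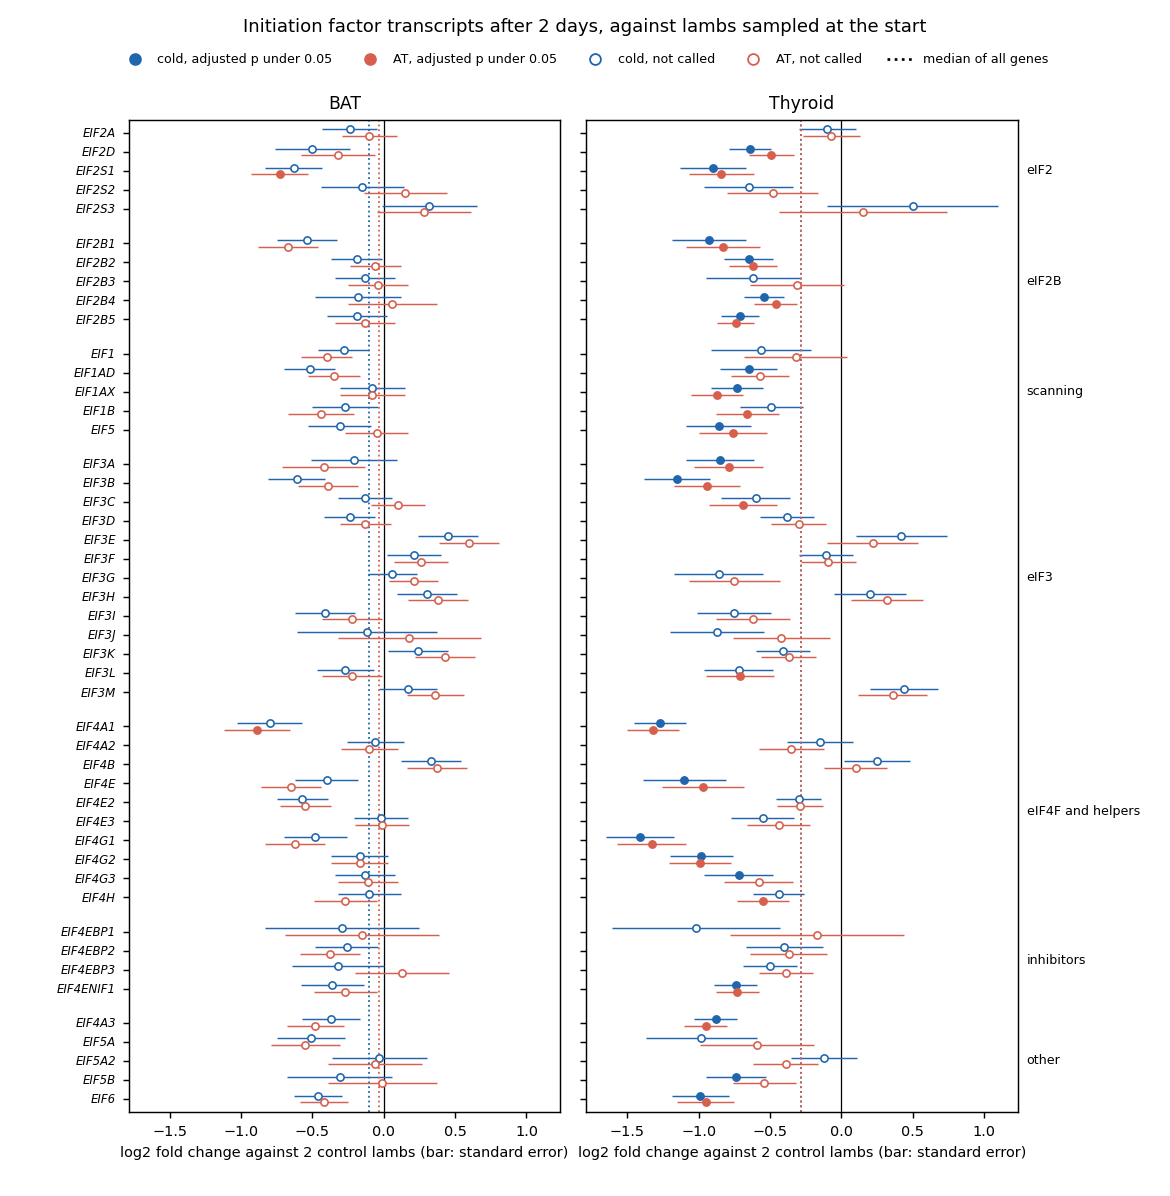
Log2 fold change (x axis) of the 47 tested initiation factor genes (y axis, by role) in BAT and thyroid, cold (blue) and AT (red) against the 2 control lambs, with standard errors, filled points for an adjusted p under 0.05 and dotted lines at the median of all genes. In thyroid 20 cold and 21 AT points are filled, all left of 0, and in BAT 2 AT points are filled.

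EIF4A1, the main helicase of eIF4F, had the lowest adjusted p of the members in both thyroid comparisons (chromosome 11, positions 36113696 to 36119413, minus strand, 12 exons). Its normalized count was 8563 in control 1 and 9682 in control 3, and its 6 cold lambs ranged from 3576 through a median of 3663 to 4292. The 6 AT lambs ranged from 2558 through 3585 to 4894. Every treated lamb was below both controls, and the unused control 2, at 5115, was above them too. The log2 fold change was -1.27 ± 0.18 (SE, adjusted p = 0.00164) in cold and -1.32 ± 0.18 (adjusted p = 0.00104) in AT.

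EIF4G1, the scaffold of eIF4F (chromosome 1, positions 221370904 to 221389790), had the largest difference. Its normalized count was 8749 and 14845 in controls 1 and 3, with cold lambs from 3754 through 4460 to 4913 and AT lambs from 3706 through 4180 to 7851. The controls differed from each other by more than the cold lambs did, but no treated lamb reached the lower of them, and the highest AT value was that of AT 3. The log2 fold change was -1.41 ± 0.24 in cold (adjusted p = 0.00293) and -1.33 ± 0.24 in AT (adjusted p = 0.00318). Control 2, at 5444, was also above the cold lambs, while AT 3 was above it. The other members of eIF4F called lower in cold were the cap binder EIF4E, the eIF4G relative EIF4G2, which supports cap-independent initiation, and the scaffold EIF4G3, at -1.10, -0.98 and -0.72. In AT they were EIF4E, EIF4G2 and the helicase cofactor EIF4H, at -0.97, -0.99 and -0.55. Control 2 was 7680 for EIF4G2, below every cold lamb, and 6086 for EIF4H, below every treated lamb. For EIF4G3 it was 3006, above every cold lamb.

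EIF4E (chromosome 6, positions 29799497 to 29839265) was 2236 and 1766 in controls 1 and 3 and between 838 and 1017, with a median of 926, in cold lambs. In AT lambs it was between 689 and 1963, with a median of 873, and AT 3 overlapped the controls. Unlike EIF4A1, it was 517 in the unused control 2, below every treated lamb, and with all 3 controls the adjusted p was 0.191 in cold and 0.297 in AT. EIF4E2, a cap binder that represses translation, was 1516 to 1598 in the controls, 1204 to 1411 with a median of 1247 in cold lambs and 1032 to 1671 with a median of 1264 in AT lambs, where AT 3 alone passed the controls. EIF4G3 was 3205 to 5271 in the controls, 2201 to 2962 with a median of 2529 in cold lambs, and 2261 to 4522 with a median of 2616 in AT lambs. The cold lambs were all below the controls, and the AT lambs overlapped them through AT 3.

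The exchange factor eIF2B held 4 called members of 5 in both comparisons, EIF2B1, EIF2B2, EIF2B4 and EIF2B5, at log2 fold changes from -0.54 to -0.93 in cold and from -0.46 to -0.83 in AT. EIF2B3 was -0.62 (adjusted p = 0.193) and -0.31 (adjusted p = 0.52). EIF2B5, the catalytic subunit (chromosome 1, positions 221519850 to 221529861), was 2270 and 2867 in controls 1 and 3, 1505 to 1663 with a median of 1568 in cold lambs, and 1311 to 1743 with a median of 1528 in AT lambs. No treated lamb overlapped the controls, and control 2 was higher still at 4522. Control 2 was also above every treated lamb for EIF2B2 and EIF2B4, but for EIF2B1, at 270, and EIF2B3, at 275, it was below every one of them. The log2 fold change of EIF2B5 was -0.71 ± 0.13 in cold (adjusted p = 0.00399) and -0.74 ± 0.13 in AT (adjusted p = 0.00274).

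Of the 5 genes for eIF2 and initiator tRNA delivery, 2 were called lower in each comparison: EIF2S1, the alpha subunit that stress kinases phosphorylate, and EIF2D, which delivers tRNA without eIF2. EIF2S1 (chromosome 7, positions 82762891 to 82785965) was 3104 and 2806 in controls 1 and 3, 1393 to 1800 in cold lambs with a median of 1570, and 1232 to 2768 in AT lambs with a median of 1453. AT 3 was the single AT value above 1633, and the groups did not overlap. Control 2, at 2244, was below AT 3 and above every other treated lamb. The fold changes of EIF2S1 were -0.90 ± 0.23 (adjusted p = 0.0166) and -0.84 ± 0.23 (adjusted p = 0.0208). EIF2S3, the gamma subunit that binds GTP, went the other way, at 0.50 ± 0.60 and 0.15 ± 0.59, and was not called. EIF2S3 lies on chromosome X, as does EIF1AX. By the study's methods each group held males and females, sex was not in the fits, and its part was not tested.

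In scanning and start codon choice, 3 of 5 members were lower in each comparison: EIF1AX, EIF5 and EIF1AD in cold, and EIF1AX, EIF5 and EIF1B in AT, at -0.65 to -0.86 and -0.66 to -0.87. EIF1AD was counted in this role, but a part of it in scanning is not known from these data. Control 2 was above every treated lamb for EIF5, at 13811. It was within the range of the treated lambs for EIF1AD, at 356, and EIF1B, at 810. Among members with other or late roles, EIF4A3, the helicase of the exon junction complex (chromosome 11, positions 10783794 to 10795592), was 2699 and 3971 in controls 1 and 3, 1700 to 1909 in cold lambs with a median of 1825, and 1432 to 2044 in AT lambs with a median of 1746. The groups did not overlap, but control 2, at 1591, was below the cold lambs. Its log2 fold change was -0.88 ± 0.15 (adjusted p = 0.00293) and -0.95 ± 0.15 (adjusted p = 0.00173). EIF6, which keeps the ribosomal subunits apart, was lower in both comparisons, at -0.99 and -0.95, and EIF5B, the GTPase of subunit joining, in cold at -0.74. For EIF6, control 2, at 946, lay within the range of the treated lambs. Of the 4 inhibitors of the cap factor, EIF4ENIF1, which moves eIF4E into the nucleus and into P-bodies, was lower at -0.74 and -0.73, and the 3 4E-binding proteins EIF4EBP1, EIF4EBP2 and EIF4EBP3 ranged from -1.02 to -0.17 without a call. EIF4EBP1 was 1529 to 2395 in the controls, 778 to 1237 with a median of 932 in cold lambs, and 888 to 5489 with a median of 1024 in AT lambs. EIF4EBP2 was 4361 to 5439 in the controls, 2936 to 4512 with a median of 3700 in cold lambs, and 2264 to 5692 with a median of 3645 in AT lambs. Both genes overlapped in AT, and EIF4EBP2 in cold as well.

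Of the eIF3 complex, 2 of 13 members (15.4%) were lower in cold and 4 of 13 (30.8%) in AT, beside the 16.9% and 18.7% of all genes given above. EIF3B (chromosome 24, positions 41696668 to 41714821) was 5062 and 5672 in controls 1 and 3. It was 2343 to 2486 with a median of 2411 in cold lambs, and 2199 to 4820 with a median of 2429 in AT lambs. The cold lambs lay close together and far below the controls, and AT 3, the highest AT lamb, came within reach of them. Control 2, at 4468, was below AT 3 and above every other treated lamb. The fold change of EIF3B was -1.15 ± 0.23 in cold (adjusted p = 0.00541) and -0.94 ± 0.23 in AT (adjusted p = 0.0122). EIF3A, the largest subunit, was lower in both at -0.85 and -0.79, and EIF3C and EIF3L in AT at -0.69 and -0.71. Control 2 was above every treated lamb for EIF3A, at 8945. It was within the range of the treated lambs for EIF3C, at 4008, and EIF3L, at 2788. EIF3E, EIF3H and EIF3M had positive values in both comparisons, from 0.20 to 0.44. EIF4B, a helicase cofactor, was also positive, at 0.25 and 0.10, and none of these genes was called. EIF3E was 3918 in control 3, below every treated lamb, and 8441 in control 1, within their range. The cold lambs ranged from 6232 to 10401 and the AT lambs from 4932 to 11417.

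**Figure D2:**
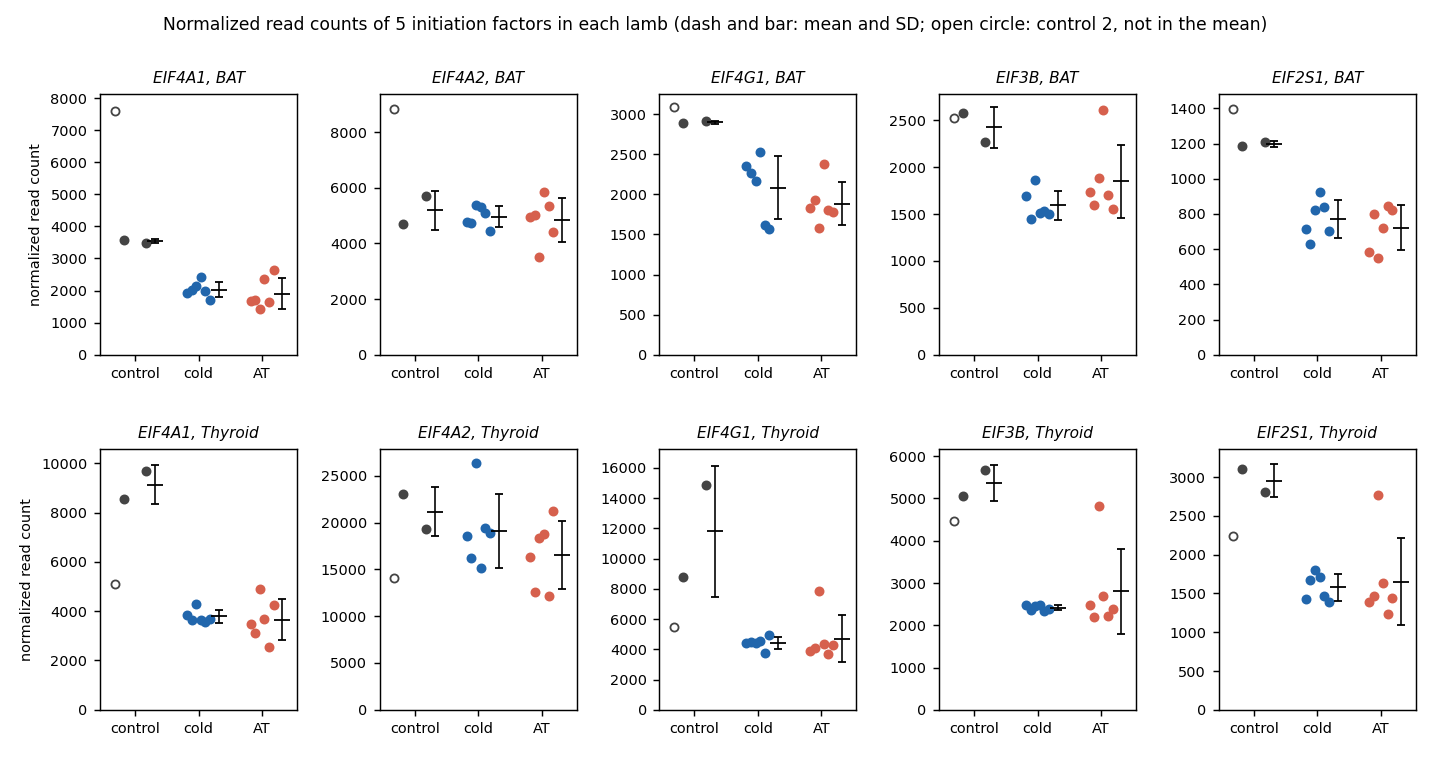
Normalized read counts (y axis, from 0) of EIF4A1, EIF4A2, EIF4G1, EIF3B and EIF2S1 in each lamb of the control, cold and AT groups, BAT above and thyroid below; dashes and bars are the mean and SD, and the open circle is control 2, which is not in the mean. Thyroid EIF4A1 is 8563 and 9682 in the controls and at most 4894 in treated lambs, while EIF4A2 overlaps between the groups.

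Without the muscle marker libraries AT 3 and control 1, and with control 2 taken in, 17 members were lower in cold and 22 in AT, against 18.9% of all genes in each, and 0 were higher. Taking in control 2 with no library left out gave 17 and 16 lower, against 14.4% and 13.6% of all genes. Leaving out AT 3 alone gave 34 lower calls in AT, against 30% of all genes. Control 3 had the largest weight: without it 0 members were called in cold and 1, EIF4A1, in AT, where 0.512% and 0.58% of all genes were lower. Without control 1, 15 members were lower and EIF3M was higher in each comparison, against 21% and 22.8% of all genes lower. In AT, 13, 12 and 13 members were lower without AT 1, AT 2 and AT 6, against 15.8%, 14.7% and 16.6% of all genes. Other cell type markers moved in the same comparisons. The follicular cell genes TG and SLC5A5 were lower in both, TG at -0.90 and -1.17, FOXE1, NKX2-1, PAX8 and TSHR were not called in either, at -0.41 to 0.13, and the summed level of the follicular list was 2870282 and 5866871 in controls 1 and 3, 1787517 to 2703919 in cold and 1322903 to 2416066 in AT lambs. The endothelial genes PECAM1 and CDH5 were lower, 2 of 5, the macrophage genes CSF1R and AIF1 were higher, 2 of 4 in the table, the lymphocyte gene CD2 was higher, 1 of 5, and the brown adipocyte gene UCP1 was lower in AT, 1 of 7. The macrophage marker sum was 984 to 1084 in the controls, 1155 to 2310 in cold and 1105 to 1797 in AT lambs, and the endothelial sum 18592 to 28283, 10362 to 15049 and 8215 to 19181. The part of these cell types in the members' values was not tested.

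In BAT fewer members were called against controls 1 and 3. In cold against control 0 of 47 members were called by edgeR, against 1.48% of all genes, with 9 members at an unadjusted p under 0.05 (18.1% of all genes) and 4 called by DESeq2. In AT against control EIF4A1 and EIF2S1 were lower, 2 of 47 (4.26%), against 6.15% of all genes, and 0 were higher, against 3.15%; 11 had an unadjusted p under 0.05 (26% of all genes). The median log2 fold change was -0.24 in cold and -0.13 in AT, where that of all genes was -0.10 and -0.03. In cold 39 members had a log2 fold change below 0 (58.8% of all genes), 15 were below both controls in every lamb (15.7%) and 4 above (8.89%). In AT 34 were below 0 (52.4%), 11 were below both controls in every lamb (15.3%) and 6 above (8.96%).

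EIF4A1 in BAT was 3581 and 3496 in controls 1 and 3, 1691 to 2419 with a median of 2008 in cold lambs and 1428 to 2652 with a median of 1681 in AT lambs. All 12 treated lambs were below the controls, and control 2 was far above at 7592. The log2 fold change was -0.89 ± 0.23 in AT (adjusted p = 0.0229) and -0.80 ± 0.23 in cold (adjusted p = 0.0752). Without control 1 the adjusted p in AT was 0.156 and without control 3 it was 0.19. EIF2S1 was 1186 and 1208 in controls 1 and 3, with a lowest value of 631 and a median of 768 in cold lambs and 551 to 846 with a median of 762 in AT lambs. Again no treated lamb reached a control, and control 2 was 1398. Its log2 fold change was -0.73 ± 0.20 in AT (adjusted p = 0.0303) and -0.63 ± 0.20 in cold (adjusted p = 0.104), and its call in AT was lost without control 1, control 3, AT 1 or AT 3, and by TMM (adjusted p = 0.0503). EIF4G1 was 2889 and 2912 in controls 1 and 3, 1569 to 2530 with a median of 2218 in cold lambs and 1581 to 2383 with a median of 1818 in AT lambs, without overlap. Its log2 fold change was -0.62 ± 0.21 in AT (adjusted p = 0.0791). EIF4E was 367 to 470 with a median of 416 in cold lambs and 235 to 458 with a median of 366 in AT lambs, all below its lowest control at 485, at -0.65 ± 0.21 in AT (adjusted p = 0.0674). By TMM, EIF4A1 and EIF4G1 were lower in AT, where 5.91% of all genes were, and EIF3E was higher.

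In the eIF3 complex of BAT, 5 of 13 members lay above both controls in every AT lamb and 0 lay below, where 8.96% of all genes lay above and 15.3% below. In the cold lambs 3 lay above and 3 below, where 8.89% of all genes lay above and 15.7% below. The 5 of the AT lambs are given next. EIF3E was 2808 and 2894 in controls 1 and 3, 3648 to 5473 with a median of 4083 in AT lambs and 3189 to 4541 with a median of 3898 in cold lambs. These groups did not overlap, but control 2 was 7009, above every treated lamb. Its log2 fold change was 0.60 ± 0.21 in AT (adjusted p = 0.0905; 0.0275 by TMM) and 0.08 with all 3 controls. The other 4 were EIF3F, EIF3G, EIF3H and EIF3M, at 0.26, 0.21, 0.38 and 0.36 in AT, and each was below 0 with all 3 controls.

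With control 2 taken in, the members' median relative to that of all genes moved from -0.14 to -0.43 in cold BAT and from -0.10 to -0.38 in AT BAT, and in thyroid it was -0.32 and -0.22. Then 4 members were lower in cold BAT, against 3.18% of all genes, and 7 in AT BAT, against 5.41%. Those in cold were EIF4A1, EIF2S1, EIF5A and EIF6, and the same genes were joined in AT by EIF1, EIF2B1 and EIF4E. EIF5A, which the ribosome needs to pass difficult peptide bonds, shares 19% of its exon length with GPS2 on the other strand, so its counts are less certain. With all 3 controls and TMM scaling 10 and 14 members were lower, against 6.73% and 11.2% of all genes. In AT BAT the brown adipocyte gene FABP4, the endothelial genes VWF and KDR and the macrophage gene CD68 were also called lower. These were 1, 2 and 1 out of 7, 5 and 4 tested markers of these types. The others were not called and lay on both sides of 0. Among them were UCP1 at -2.23 and TEK at -0.33, and ADIPOQ at 0.76, PLIN1 at 0.94, CDH5 at 0.66 and MRC1 at 0.93. In cold BAT 0 markers were called; the part of these markers was not tested.

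The difference between the tissues in these changes was tested directly. BAT change minus thyroid change had a median of 0.45 over the members in cold and 0.43 in AT, where the median of all genes was 0.27 and 0.31. With all 3 controls the members' medians were 0.10 and 0.08, below those of all genes at 0.31 and 0.34, so that the direction relative to all genes turned with control 2. By edgeR 0 members were called in either, against 0.188% and 1.66% of all genes. The lowest adjusted p was 0.0992, for EIF3K in AT at 0.84. With all 3 controls EIF2B5 was called in AT, at 1.06 (adjusted p = 0.0198). A member called in thyroid and not in BAT is therefore not shown to have changed differently in the tissues.

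Ratios of related members within a library need no scaling between libraries. They were compared for 6 pairs in 6 comparisons, 36 exact 2-sided permutation tests in all, and 0 had an adjusted p under 0.05, with 9 at an unadjusted p under 0.05. With 2 controls against 6 lambs the exact test cannot give a p below 0.0357.

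EIF4A1 and EIF4A2 encode closely related helicases of eIF4F. In thyroid EIF4A1 had 0.372 and 0.502 reads per EIF4A2 read in controls 1 and 3, 0.163 to 0.241 in cold lambs and 0.197 to 0.267 in AT lambs. In BAT the ratio was 0.765 and 0.615 in controls 1 and 3, 0.382 to 0.456 in cold lambs and 0.309 to 0.602 in AT lambs. Every treated lamb was below every control in both tissues, and control 2, at 0.364 in thyroid and 0.858 in BAT, was also above all treated lambs. The log2 ratio was lower by a mean difference of -1.11 in cold and -0.97 in AT thyroid and of -0.75 and -0.82 in BAT, each with an exact permutation p of 0.0357 (adjusted p = 0.143). With all 3 controls these were -1.02, -0.89, -0.86 and -0.93, each with an exact permutation p of 0.0119, the smallest that 3 against 6 lambs allow (adjusted p = 0.0714). EIF4A2 itself overlapped between the groups in each tissue: in thyroid it was 23000 and 19296 in controls 1 and 3 and 15194 to 26362 in cold lambs, with a log2 fold change of -0.15 ± 0.23 (adjusted p = 0.688).

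EIF3B against EIF3E compares 2 subunits of eIF3. In thyroid the ratio was 0.6 and 1.45 in controls 1 and 3, 0.235 to 0.399 in cold lambs and 0.208 to 0.644 in AT lambs, so that only AT 3 reached control 1. In BAT it was 0.918 and 0.783 in controls 1 and 3 and 0.312 to 0.531 in the 12 treated lambs, without overlap, but control 2 was 0.36, within the treated range. The log2 ratio was -1.23 ± 0.27 (SD) in AT BAT against -0.24 ± 0.16 in the controls, and it differed by -1.65 in cold thyroid and -1.05 in cold BAT, each with an exact permutation p of 0.0357, and -1.26 in AT thyroid (exact permutation p = 0.0714). Taking in control 2, the BAT differences were -0.64 in cold (exact permutation p = 0.0714) and -0.59 in AT (exact permutation p = 0.119), and the thyroid ones were -1.47 (exact permutation p = 0.0119) and -1.09 (exact permutation p = 0.0357).

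The cap binders EIF4E and EIF4E2 differed in cold thyroid, at a log2 ratio of -0.44 ± 0.05 (SD, n = 6) against 0.14 and 0.56 in controls 1 and 3 (exact permutation p = 0.0357), and by -0.13 with all 3 controls (exact permutation p = 0.762). The ratio of EIF4G1 to EIF4G3, of EIF4E to its inhibitor EIF4EBP1 and of EIF4EBP1 to EIF4EBP2 gave no exact permutation p under 0.05 with the 2 controls. With all 3 controls EIF4G1 over EIF4G3 in BAT moved from -0.37 to -0.96 in cold (exact permutation p = 0.0238, adjusted p = 0.107) and from -0.50 to -1.09 in AT (exact permutation p = 0.0119, adjusted p = 0.0714). Of the groups of 6, EIF4E over EIF4EBP1 in AT BAT had the widest spread, with a log2 ratio of -1.46 ± 0.96.

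**Figure D3:**
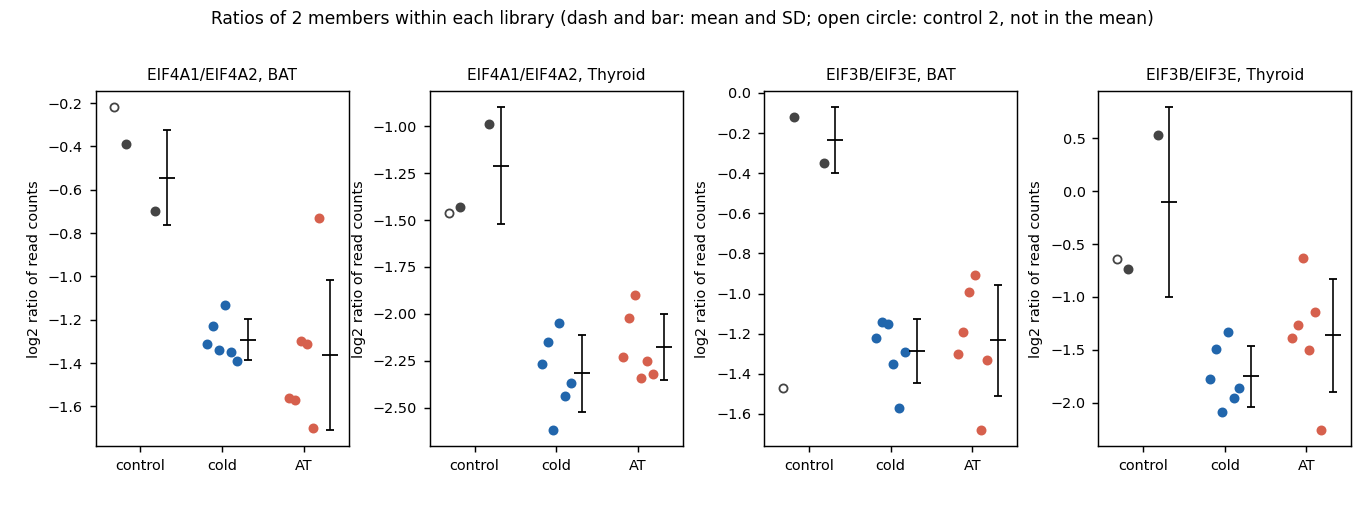
Log2 ratio of read counts within a library (y axis) of EIF4A1 to EIF4A2 and of EIF3B to EIF3E in control, cold and AT lambs, for BAT and thyroid; dashes and bars are the mean and SD, and the open circle is control 2, which is not in the mean. The ratio of EIF4A1 to EIF4A2 is below all 3 controls in every treated lamb of both tissues, and that of EIF3B to EIF3E in BAT is not below control 2.

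Cold and AT lambs of the same age did not separate for any member. In BAT 0 of 47 members were called in cold against AT, where 0.309% of all genes were, and in thyroid 0 were called, where 0% of all genes were; 0 members had an unadjusted p under 0.05 in either tissue, against 12.3% and 5.4% of all genes, and DESeq2 also called 0. No member had all cold lambs below or above all AT lambs, as 0.154% and 0.537% of all genes in BAT and 0.0744% and 0.118% in thyroid had. The log2 differences spanned -0.44 to 0.25 in BAT, and in thyroid -0.85 to 0.35. Depth and number bounded them: the 95% interval of the difference lay within 1 log2 unit of 0 for 46 of 47 members in BAT, all but EIF3J, and for 44 in thyroid, all but EIF2S3, EIF4EBP1 and EIF5A. EIF4EBP1, the 4E-binding protein, had the lowest unadjusted p in thyroid (0.0751 by edgeR) and EIF4EBP3 in BAT (0.0756). The thyroid value of EIF4EBP1 rested on AT 3, which stood at 5489 while the other AT lambs were at most 1099 and the cold lambs between 778 and 1237. EIF4EBP3 was 196 to 322 with a median of 247 in cold BAT and 169 to 591 with a median of 338 in AT BAT, and the groups overlapped. Of the ratios, EIF4E over EIF4E2 in BAT was higher in cold than in AT by 0.29 (log2), with an exact permutation p of 0.0195 (adjusted p = 0.143).

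**Figure D4:**
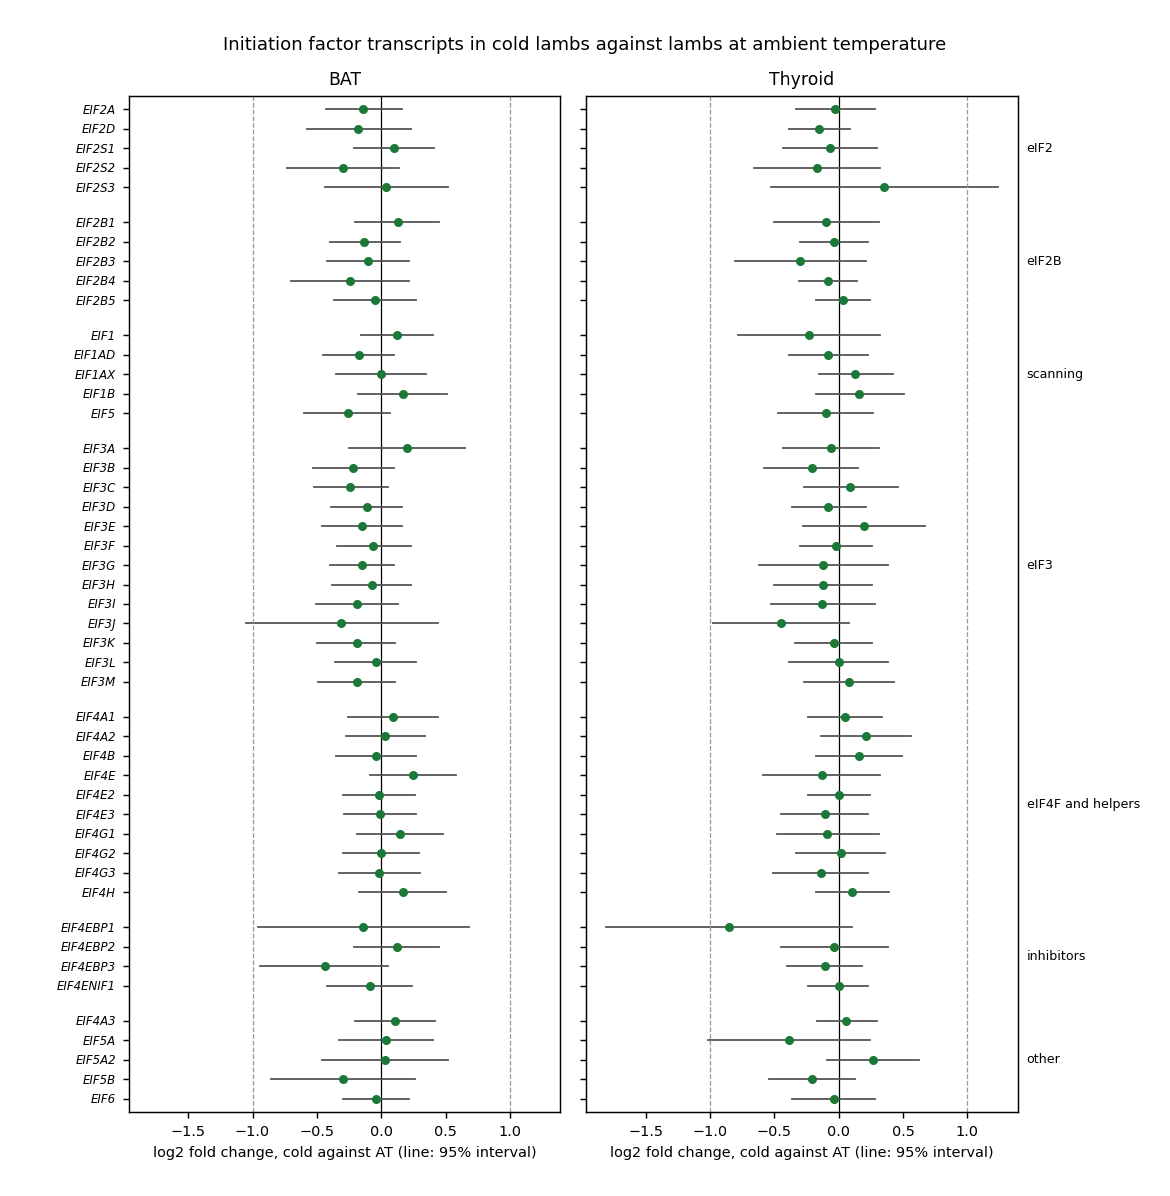
Log2 fold change (x axis) of the 47 tested members (y axis, by role) in cold against AT lambs, for BAT and thyroid, with 95% intervals and dashed lines at -1 and 1. Every interval holds 0, and 46 intervals in BAT and 44 in thyroid lie between the dashed lines.

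Between the tissues, more members were higher in BAT than in thyroid relative to the 3 reference genes than were lower. Over the 3 groups, 27 of 47 members (57.4%) were higher in BAT, against 44.5% of all genes, and 5 (10.6%) were lower, against 26.5%. A called difference of at least 1 log2 unit was found for 4 members, against 39.2% of all genes. The median log2 difference was 0.33, and that of all genes was 0.24. By role, BAT was higher for 3 of 5 eIF2, 3 of 5 eIF2B, 3 of 5 scanning, 8 of 13 eIF3 and 5 of 10 eIF4F genes and for 3 of 4 inhibitors. By TMM 20 members were higher and 7 lower, against 38.8% and 33% of all genes.

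EIF4EBP2, the 4E-binding protein that holds eIF4E away from eIF4G, had the lowest adjusted p (8.21e-10) and separated the tissues in every library (chromosome 25, positions 27523103 to 27549941). On the scale shared by the tissues it was 5014 to 8207 in the 14 BAT libraries, with a median of 6055, and 1416 to 3677 in the 14 thyroid libraries, with a median of 2395, a log2 difference of 1.38 ± 0.13. EIF3J, a loosely bound eIF3 subunit (chromosome 7, positions 107382578 to 107393452), had the largest log2 difference, 1.49 ± 0.25 (adjusted p = 8.87e-06), with 299 to 1406 in BAT and 146 to 465 in thyroid. Its ranges overlapped. EIF5B was 4655 to 13952 in BAT and 2241 to 4895 in thyroid, a log2 difference of 1.26 ± 0.18 (adjusted p = 6.17e-07), also with overlap. In all, 2 members, EIF4EBP2 and EIF4E3, were higher in every BAT than in every thyroid library, and 0 were lower, where 11.4% and 7.78% of all genes were.

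Lower in BAT were EIF4H at -0.64 ± 0.11 (adjusted p = 7.16e-06), EIF4A3 at -0.62 ± 0.10 (adjusted p = 3.16e-06), EIF4A2 at -0.55 ± 0.11 (adjusted p = 8.96e-05), EIF5A and EIF3C. EIF4H lay between 2664 and 5413 in BAT and between 4599 and 10451 in thyroid, and the 3 named genes overlapped between the tissues. Of the helicase pair, EIF4A1 was higher in BAT at 0.30 ± 0.12 (adjusted p = 0.023; by TMM 0.14, adjusted p = 0.268).

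**Figure D5:**
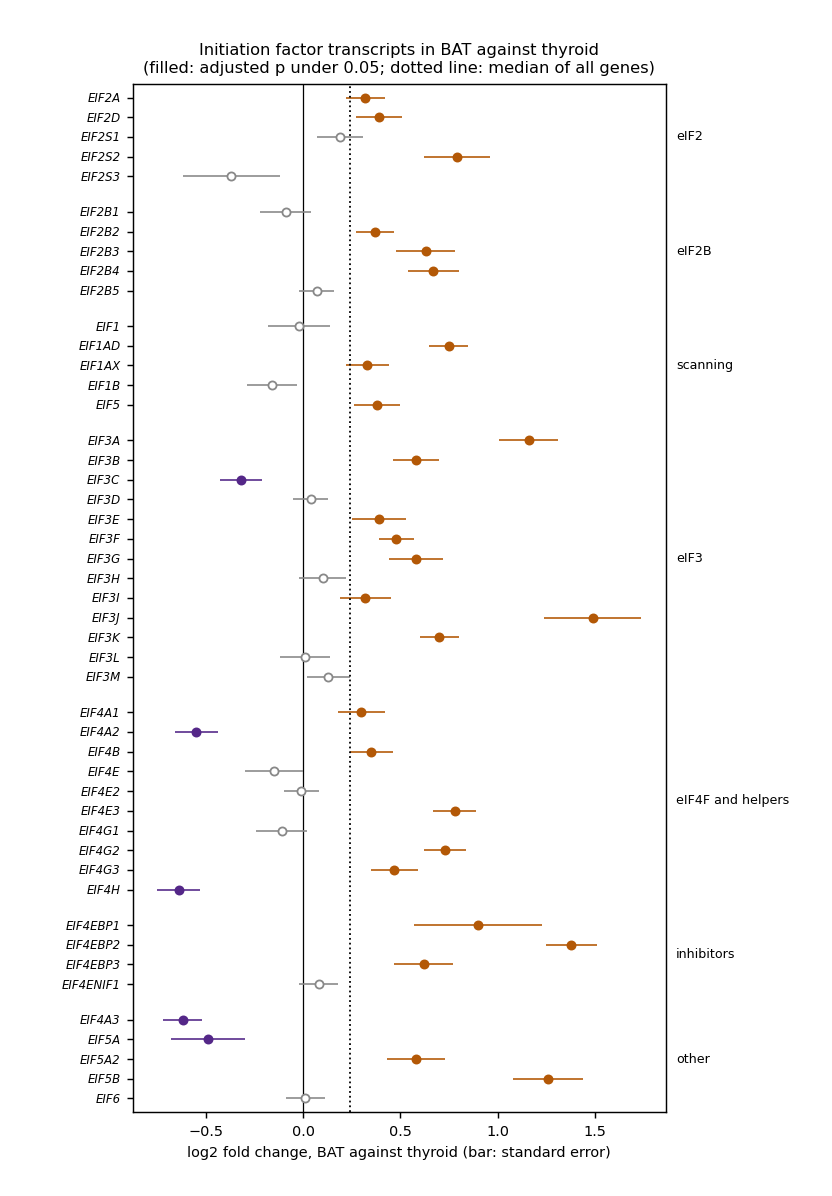
Log2 fold change (x axis) of the 47 tested members (y axis, by role) in BAT against thyroid over the 3 groups, with standard errors, filled points for an adjusted p under 0.05 and a dotted line at the median of all genes, 0.24. EIF3J, EIF4EBP2, EIF5B and EIF3A stand above 1, and EIF4H, EIF4A3 and EIF4A2 are the lowest.

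The genes that regulate or continue initiation gave the setting. In thyroid, 3 of 7 eIF2 kinase and phosphatase genes were lower in each treated group, among them EIF2AK3, the kinase PERK of the endoplasmic reticulum, at -1.10 ± 0.18 in cold (adjusted p = 0.00254) and -1.23 ± 0.18 in AT (adjusted p = 0.00134), and PPP1R15A, the stress-induced subunit that directs the eIF2 phosphatase, at -1.24 and -0.89. Of 12 genes for mTOR and MNK control of the cap factor, 6 were lower in cold and 4 in AT, with MTOR at -0.93 ± 0.17 and -0.86 ± 0.17 and LARP1, the repressor of terminal oligopyrimidine mRNAs, at -0.72 and -0.64. Of 15 other initiation proteins, 6 and 7 were lower, led by BZW1, an eIF5 mimic, at -1.20 ± 0.19 and -1.38 ± 0.18, and of 11 tested elongation and termination factors 3 and 3, among them the release factor genes ETF1 and GSPT1. In BAT the same lists gave 0, 0, 0 and 1 lower in cold and 1, 0, 2 and 3 in AT, with EEF1E1, a partner of the tRNA synthetase complex, lower in both at -0.93 and -1.15. The median log2 fold change of the elongation and termination list was 0.12 in cold and 0.38 in AT BAT. That of all genes was -0.10 and -0.03, and those of the other lists ranged from -0.24 to -0.06. No gene of the 4 lists was called higher against control in either tissue. Of all genes, 16.9% and 18.7% were lower in cold and AT thyroid and 6.15% in AT BAT, and 1.48% were called in either direction in cold BAT.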

How the data were processed

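RNA was extracted with TRIzol, captured with oligo(dT) beads and sequenced as 150-base read pairs on BGISEQ-500. Per the study's methods and the labels, the authors trimmed reads with Trimmomatic 0.39, aligned them with STAR 2.7.7a to Oar_rambouillet_v1.0 and counted reads per gene with featureCounts (Subread 2.0.0), multi-mapping reads included; the strand setting is not given in the sources used here. Reads shared by close relatives such as EIF4A1 and EIF4A2 can therefore count for each. The authors deposited whole-number counts without normalization, used here as deposited.

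The initiation factors, their roles and the gene lists were chosen with earlier results of these data known. In each tissue, genes that reached 10 reads in 10 or more libraries went into edgeR 4.0.16 (R 4.3.3, quasi-likelihood, robust, 2-sided) using size factors from ACTB, RPL19 and HUWE1, all 3 groups in 1 fit. BAT and thyroid were compared in a fit of 6 groups. The 2 controls used by the study were identified by matching its per-lamb normalized counts to the deposited counts. Normalized counts are counts divided by the size factor. Ratios had 0.5 added to each count and were compared by exact permutation. Chromosome names were given to the accessions of the files by gene content (at least 94.7% of genes in accord with RefSeq's table, assembly ARS-UI_Ramb_v3.0, which names 47 of the 48 members). EIF5B lies on chromosome X in the files and on chromosome 3 in that table, so its position is not given.

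Named in full by rule were the 3 called members with the lowest adjusted p in each direction against control, the members of the 6 ratio pairs, and the 3 with the largest tissue difference in each direction; other genes are named by role or list, and EIF4EBP3 and the eIF3 subunits above control in BAT were chosen after their values were seen. The labels tie each library to a lamb, so the lamb was tried as a block. Deviations of the 2 libraries of a lamb from their group means had a correlation of 0.0458 to 0.326, over 0.1 in 13 of 14 lambs. Controls 1 and 3 mirror each other around their shared mean, so their values, 0.111 each, are the same by construction. Libraries of different lambs were not correlated in this way as a reference. All pairs of libraries within a group differed by more than counting error, with a chi-square of at least 51.8 (BAT) or 36 (thyroid) per degree of freedom. Alternatives were TMM, median-of-ratios size factors, DESeq2 1.42.0, other filters, all 3 controls, the RNA integrity number, pairwise fits and each lamb left out. All 3 controls with TMM, and the thyroid fit without the muscle marker libraries, were added after seeing the data. The fits were tested on simulated data. The result of 1 marker gene is not reported here.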

Additional observations from a re-analysis of the deposited data

Results flagged for a closer look

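In each group of 6 lambs the highest and the lowest normalized count of 16 named members were compared with the rest by Dixon's test, and 12 of 64 groups had a library that stood apart; chance gives about 1 in 20. All 12 were high values, and 6 were the thyroid library of AT 3, which also held the highest skeletal muscle marker sum, 3202093. In it EIF2S1 was 2768 (next highest 1633), EIF3B 4820 (2698), EIF4E 1963 (975), EIF4EBP1 5489 (1099), EIF4G1 7851 (4355) and EIF4G3 4522 (2684). The part of the muscle tissue in these values was not tested.

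In BAT, cold 1 stood apart for EIF3J at 880 (next highest 379), EIF4EBP1 at 2074 (1085) and EIF5B at 7018 (4398). Cold 3 stood apart for EIF4EBP2 at 5255 (4006) in BAT and for EIF4E2 at 1411 (1276) in thyroid. AT 4 stood apart for EIF3B in BAT at 2608 (1882).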

How the results depend on the processing

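The counts against control depended on the scale and the control lambs. In thyroid, TMM and median-of-ratios size factors each gave 8 lower calls in cold in place of 20, and 7 and 6 in AT in place of 21; fits of only the 2 groups gave 31 and 5, and a fold of at least 1 log2 unit left 4 and 2. In AT thyroid the RNA integrity number as a covariate left 12, and all 3 controls with TMM (chosen after seeing the data) 10. Leaving out 1 lamb gave 0 to 19 in cold and 1 to 34 in AT, lowest without control 3 in each and highest in AT without AT 3. In cold BAT, 0 calls became 4 by DESeq2, 4 with all 3 controls and 10 with TMM as well, and leaving out 1 lamb gave 0 to 0. In AT BAT, 2 calls became 7 by DESeq2, 7 with all 3 controls, 14 with TMM as well, 4 with median-of-ratios size factors, and 0 with only the 2 groups or at a fold of 1 log2 unit, and leaving out 1 lamb gave 0 (control 1 or 3) to 6 (AT 6). The cause of these shifts was not tested. The difference between BAT and thyroid was called for 32 members, for 31 with the lamb as a block, and for 4 at a fold of 1 log2 unit; the tissue difference of the AT change gave 1 with all 3 controls, and the block changed no other call. Cold against AT and the ratios stayed at 0 throughout. Of 268 alternative values of the 20 named results, 212 kept their call, 56 lost it and 0 changed direction. With 2 controls, p-values rest on the spread between few lambs, and the low calls in BAT do not show that its members stayed at the control level.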

Other observations

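The control 2 lamb, in neither tissue part of the comparisons, held the highest EIF5B and EIF3J of all 15 libraries in each tissue. EIF5B was 31138 in its thyroid, where the other controls were 6832 and 7704, and 21374 in its BAT, where they were 5433 and 5369. EIF3J was 1749 in its thyroid, against 455 to 646, and 1555 in its BAT, against 495 and 385. Control 2 was also the highest of the 15 libraries in both tissues for other members. Among them were EIF5, at 10419 in BAT and 13811 in thyroid, and EIF3A, at 7381 and 8945. These genes were chosen after their values were seen.

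The genes outside the family whose level was most like the mean of the 24 called members in thyroid were SNRPE (Pearson r = 0.99 over 14 libraries), which encodes a core protein of the spliceosome, ZNF706 (0.981), the chaperonin subunit gene CCT5 (0.981), NEK9 (0.979) and the chaperone gene HSPA4 (0.979). With TMM the 5 were CCT6A (0.98), SNRPE (0.98), LOC101121718 (0.977), PNO1 (0.977) and HSPA4 (0.976). In BAT, where 2 members were called, they were LOC114114532 (0.968), UBE2N (0.964), GAR1 (0.959), PSMD11 (0.958) and GSPT1 (0.951). These correlations describe 14 libraries that share size factors, groups and the libraries that stand apart.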
